A study of Mus musculus with 6 samples.

Results

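The genes described here are 4 SOX transcription factor genes of foregut and stomach, Sox2, Sox4, Sox9 and Sox21, out of 21887 protein-coding genes. They were chosen by name, as genes of stomach stem, progenitor or metaplastic cells. For each gene, every peak summit inside it or within 50 kb of either end was taken, and summits outside every protein-coding gene were taken up to 200 kb away. The summits came from 6 chromatin immunoprecipitation sequencing (ChIP-seq) libraries of mouse gastric corpus epithelium, freed with EDTA and fixed without culture. Normal mice were labelled wild type. Tumor mice were labelled CluCreERT2;R26rtTA;HA-Yap+, that is, a tamoxifen-inducible Cre driven by Clu, a doxycycline-responsive transactivator at Rosa26 and an HA-tagged Yap. The treatment text is the same for all 6 samples: 2 mg tamoxifen on 5 days and then 14 days of doxycycline food. H3K27ac, the acetylated histone found at active enhancers and promoters, was immunoprecipitated in 1 normal and 1 tumor library. YAP, the coactivator restrained by Hippo signalling, was immunoprecipitated in 2 normal and 2 tumor libraries. The Cre acts in cells that express Clu. The labels do not say whether animals were pooled or whether replicates are separate animals, so a p-value here measures the spread between samples alone, and that spread may be technical.

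SOX proteins bind DNA through a high-mobility-group (HMG) box and usually act with partner factors, so the same SOX protein can serve different cell types. Sox2 sets foregut and stomach identity against intestinal identity and marks progenitor cells. Sox21 is a relative of Sox2 that mostly represses transcription and is often found in the same tissues. Sox4 is a progenitor gene that responds to TGF-beta, and Sox9 is a progenitor gene of many endodermal organs that is also seen in gastric metaplasia. YAP does not bind DNA by itself. It is carried to chromatin mainly by TEAD factors, whose sites contain GGAATG, and AP-1 sites (TGANTCA) often lie nearby.

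The starts of Sox2, Sox4 and Sox21 are shown first, because both tumor YAP libraries had a summit there. The 3 sequences are the 250 bases upstream of the gene start in RefSeq (GRCm38.p6), written 5′ to 3′ on the strand of the gene, and capitals mark a GGAATG or TGANTCA match on either strand. Of the 4 genes, 3 matched the RefSeq promoter table and Sox9 did not. Sox2 (chr3:34649745-34649994, plus strand), Sox4 (chr13:28953700-28953949, minus strand) and Sox21 (chr14:118237031-118237280, minus strand) read as follows.
Sox2: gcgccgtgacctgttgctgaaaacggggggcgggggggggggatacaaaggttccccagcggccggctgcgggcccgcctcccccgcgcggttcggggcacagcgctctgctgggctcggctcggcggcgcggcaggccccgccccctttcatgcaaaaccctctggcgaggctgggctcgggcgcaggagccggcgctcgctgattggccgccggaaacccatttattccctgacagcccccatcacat
Sox4: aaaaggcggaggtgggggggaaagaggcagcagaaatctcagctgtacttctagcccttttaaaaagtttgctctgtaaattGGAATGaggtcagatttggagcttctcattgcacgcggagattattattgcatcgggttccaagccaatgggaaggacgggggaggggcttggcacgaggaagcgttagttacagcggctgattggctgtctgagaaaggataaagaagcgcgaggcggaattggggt
Sox21: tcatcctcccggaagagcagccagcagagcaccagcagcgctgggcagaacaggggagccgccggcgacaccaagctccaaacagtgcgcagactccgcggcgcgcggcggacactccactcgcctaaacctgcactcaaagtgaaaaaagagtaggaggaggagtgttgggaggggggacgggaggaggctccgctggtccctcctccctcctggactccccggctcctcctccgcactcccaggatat
The Sox4 sequence held 1 GGAATG, at chr13:28953862-28953867, with its first base 168 bases upstream of the gene start. The middle of this match lay 11 bp from the YAP site of both tumor libraries. The Sox2 and Sox21 sequences held neither motif in these 250 bases. At Sox21 the tumor YAP summits lay just inside the gene, outside the printed bases, so the other side of that site was not searched. Over all 32851 sequences of this length in the table, 12.6% held GGAATG and 6.75% held TGANTCA. A match is a string of letters and not a measured binding site.

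The lists behind these values differ in length. H3K27ac summits numbered 22574 in normal and 66896 in tumor, and YAP summits 1654 (normal 1), 2141 (normal 2), 38268 (tumor 1) and 53904 (tumor 2), by the labels. The depth of sequencing is unknown, and a longer list puts more summits at any gene. Words inside the peak names go against 2 labels: normal 2 carries the word of the tumor H3K27ac library (Clu_Yap), and tumor 1 carries that of the normal one (cre). The H3K27ac normal and YAP normal 1 lists carry cre as well, although their mice were labelled wild type, and the meaning of the word was not tested. Groups follow the labels, and values by the name words are given where a direction rests on them. Of 13 gastric marker genes, 11 had an H3K27ac summit within 5 kb in either tissue, Pga5 and Tff2 lacking one in normal and Pga5 and Gkn1 in tumor. Of 13 markers of immune, stromal, squamous and intestinal cells, 5 had one in normal (8 summits in all) and 10 in tumor (22 summits). Krt5, Krt14, Cdx2, Muc2, Des and Pdgfra had one only in tumor, Acta2 only in normal, and Trp63 and Cd3e in neither. With the tumor list at the normal length, 7 of the 13 gastric markers (11 summits) and 3 of the 13 others (3 summits) had one. The part of other cell types in the results below was not tested. In a bulk sample, fewer cells with a bound site and less binding per cell cannot be told apart.

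All 4 SOX genes carried YAP in both libraries labelled tumor, and each had a site of both tumor libraries within 1 kb of a gene end, as did 46.5% of all protein-coding genes. In these windows Sox21 had 11 sites of both tumor libraries, Sox4 8, Sox2 5 and Sox9 3. That order depended on the settings: within 10 kb Sox4 had 3 sites, Sox21 and Sox9 2 each and Sox2 1, and with scores of at least 10 Sox4 and Sox21 had 3 each, Sox9 1 and Sox2 0. Of the 4 windows, that of Sox21 alone held a normal YAP summit. A site of both tumor libraries is a tumor 1 summit matched one to one to a tumor 2 summit within 200 bp and placed at their midpoint. The plot of summit maps shows the windows library by library.

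**Figure D1:**
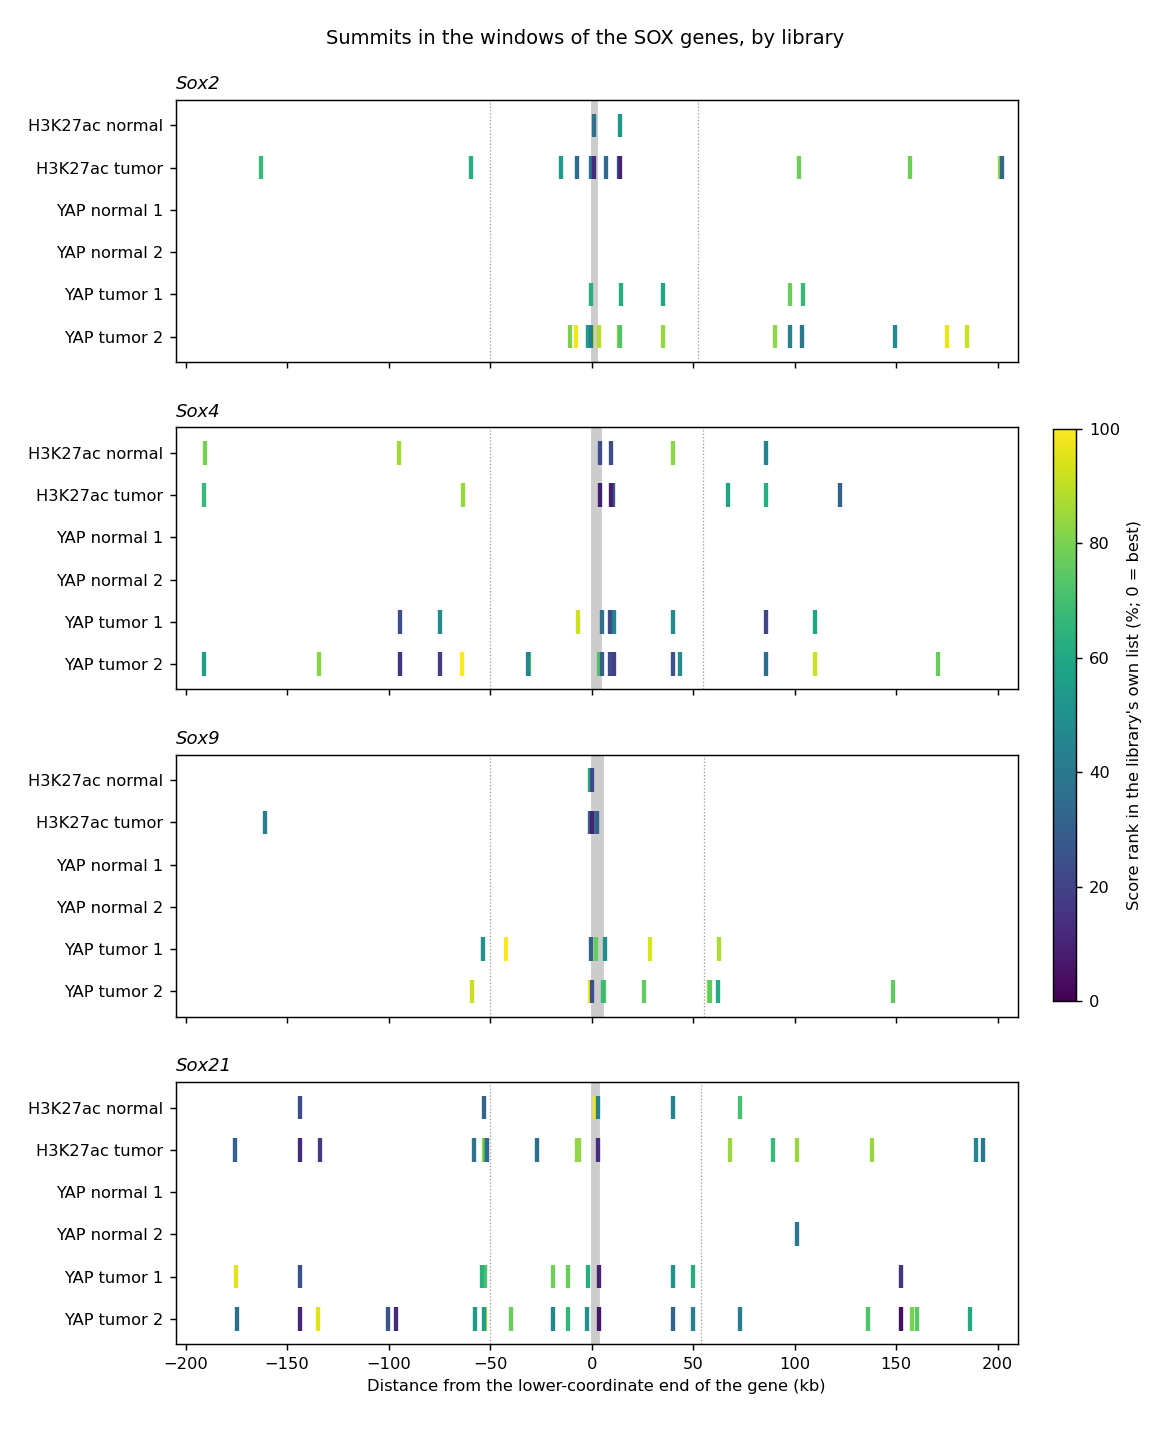
Summits of the 6 libraries along the windows of the 4 genes, by distance in kb from the lower-coordinate end of each gene. The grey band is the gene, dotted lines mark 50 kb on either side, and color gives the rank of the deposited score in the library's own list in percent, with 0 as the best. The YAP normal rows hold 1 summit in all, at Sox21, while the 2 YAP tumor rows hold 33 and 63.

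At Sox2 (chromosome 3, 34649995 to 34652461), YAP summits numbered 0 and 0 in normal 1 and normal 2, and 5 and 15 in tumor 1 and tumor 2. Both tumor libraries lay above both normal ones, as they did at 85.1% of all protein-coding genes. Tumor 2 had 3 times the summits of tumor 1, and the SD of the tumor pair was 7.07 around a mean of 10. At Sox21 (chromosome 14, 118233233 to 118237030), they numbered 0 and 1 in the normal libraries and 11 and 21 in the tumor libraries. Both tumor libraries again lay above both normal ones, with means of 16.0 ± 7.07 and 0.5 ± 0.707 (SD, n = 2 each).

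At Sox4 (chromosome 13, 28948919 to 28953699), the normal libraries had 0 and 0 YAP summits and the tumor libraries 10 and 17. The mean of 13.5 ± 4.95 in tumor (SD, n = 2) stood against 0 in normal. At Sox9 (chromosome 11, 112782210 to 112787757), there were 0 and 0 in normal and 7 and 10 in tumor, a mean of 8.5 ± 2.12 (SD, n = 2). These were the tumor libraries closest to each other among the 4 genes.

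A two-sided exact permutation test per gene gave p = 0.333 at each of the 4 (n = 2 per group). No smaller p is possible with these libraries, so no difference could pass a threshold. Both tumor libraries lay above both normal libraries at 4 of 4 SOX genes, and at 85.1% of all 21887 protein-coding genes under the same window rule, so the share at the SOX genes is close to that background. A list as short as normal 1 would hold only 0.216 Sox2 summits at the rate of tumor 1 and 0.644 Sox21 summits at the rate of tumor 2. With every YAP list kept to its best 1654 summits, both tumor libraries had 0 summits at all 4 genes, and the Sox21 difference turned to -0.5 through the 1 summit of normal 2. Grouped by the name words, the difference (Clu_Yap minus cre) was 5.0 for Sox2, 3.5 for Sox4, 1.5 for Sox9 and 5.5 for Sox21, and these groups overlapped (exact permutation p of 1.0 for the first 3 and 0.667 for Sox21, n = 2 per group).

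**Figure D2:**
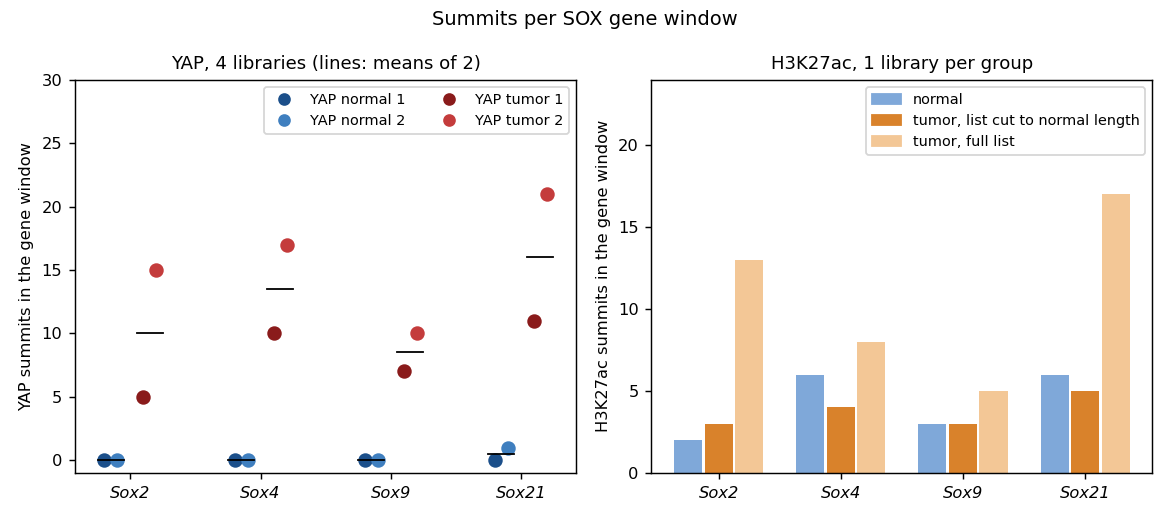
Number of summits in the window of each SOX gene. On the left, dots are the 4 YAP libraries and lines the means of 2 libraries, with tumor dots from 5 to 21 and normal dots at 0 or 1. On the right, bars are the single H3K27ac libraries, the tumor one also with its list cut to the length of the normal list, where the 2 tissues differ by at most 2 summits.

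Sites of both tumor libraries numbered 5 at Sox2, 11 at Sox21, 8 at Sox4 and 3 at Sox9, 27 in all. At least 1 such site lay in the window of 85.6% of all protein-coding genes. At least as many sites as at Sox21 were found at 19.7% of genes, at least as many as at Sox4 at 36.4%, as at Sox2 at 57.7% and as at Sox9 at 72.1%. Sox4 and Sox21 thus stood above the median gene, which had 6 sites, and Sox2 and Sox9 below it. Most of the Sox21 sites, however, lay nearer to an end of Dct, Tgds, Gpr180, Gm9376 or Abcc4 than to Sox21. Every Sox2, Sox4 and Sox9 site had its own gene as the nearest protein-coding one. The counts rested on the library: tumor 1 alone gave 5, 10, 7 and 11 summits at Sox2, Sox4, Sox9 and Sox21, and tumor 2 alone 15, 17, 10 and 21. Of the summits in the windows without a partner, 7 were in tumor 1 alone (0 of them at Sox2) and 36 in tumor 2 alone. The site of Sox21 at 118132768 is counted by its midpoint, since its tumor 1 summit lay just inside Tgds. That midpoint was 3 bp from the end of Tgds.

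**Figure D3:**
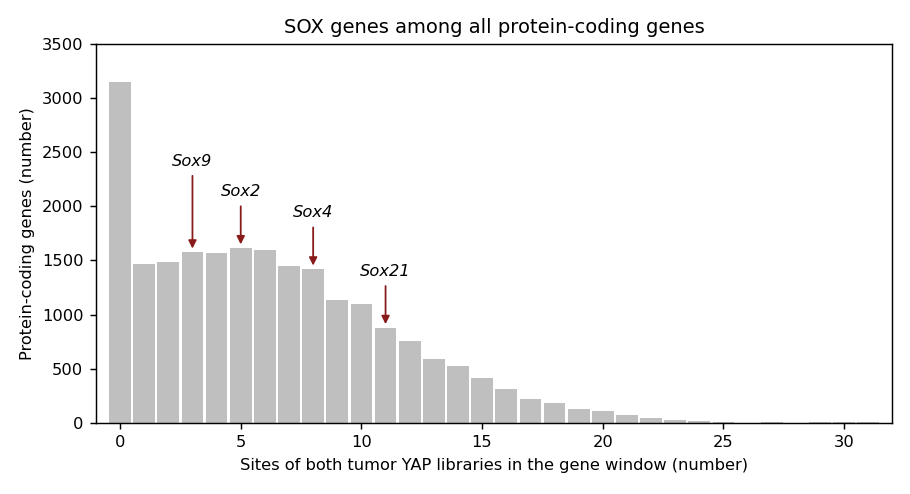
Protein-coding genes (vertical axis, number) by the number of sites of both tumor YAP libraries in their window (horizontal axis), with 4 SOX genes marked by arrows. Sox9 (3) and Sox2 (5) lie left of the median of 6, Sox4 (8) and Sox21 (11) to its right; bars stop at 32 sites.

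The start of Sox21 held the strongest YAP summit at any of the 4 gene starts. The tumor summits lay 8 and 2 bp inside the gene (positions 118237022 and 118237028), with deposited scores, the authors' own −log10 of a p- or q-value, of 22.3 and 36.2. They ranked 3436 of 38268 in tumor 1 and 3013 of 53904 in tumor 2, so both were in the best 10% of their lists. The H3K27ac summits of both tissues lay further into the gene, 486 bp from that end in normal and 544 bp in tumor. A single site ranked better than this one in tumor 2: the site at 118385741, inside the long noncoding RNA gene 1700044C05Rik and 148711 bp upstream of Sox21, which ranked 5946 in tumor 1 and 2171 in tumor 2. It had no H3K27ac summit within 14145 bp in tumor or 79480 bp in normal, and the protein-coding gene end nearest to it was that of Abcc4, a transporter gene.

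Other Sox21 sites lay on both sides of the gene. The site 143738 bp downstream, whose nearest protein-coding gene end was that of Tgds, ranked 9527 and 5778 in tumor 1 and tumor 2 and had an H3K27ac summit 158 bp away in tumor and 33 bp away in normal. The site 36113 bp upstream had a normal H3K27ac summit 108 bp away and no tumor one within 28138 bp. Sox21 is the gene of the 4 with the most neighbours, and 5 tumor 1, 3 tumor 2 and 1 normal 2 YAP summits between 50 and 200 kb were left out because they lay inside another protein-coding gene. The 1 normal YAP summit that was kept, at 118334389 in normal 2 and 97359 bp upstream, ranked 847 of 2141. It had a tumor H3K27ac summit 7 bp away, of rank 56571 of 66896, and no tumor YAP summit within 200 bp.

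Sox2 sites had modest ranks throughout. The site 191 bp upstream of the start joined summits of scores 5.65 in tumor 1 and 10.1 in tumor 2, at ranks of 62.7% and 42.5% of their lists, where 0% would be the best. A tumor H3K27ac summit lay 309 bp away and the nearest normal one 1412 bp away, inside the gene. The site 11767 bp downstream, inside the long noncoding RNA gene Sox2ot that spans Sox2, had an H3K27ac summit in both tissues, 95 bp away in tumor and 138 bp away in normal. The other 3 sites, 32799, 95320 and 101355 bp downstream, had none within 1 kb in either tissue. Tumor 1 had no summit in the Sox2 window that tumor 2 lacked, while tumor 2 had 10 that tumor 1 lacked.

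Sox4 sites ranged widely in rank and distance. The lowest in rank, 105259 bp upstream, stood at 59.3% and 91.6% of the tumor 1 and tumor 2 lists. At the gene start, the site 154 bp upstream, inside the long noncoding RNA gene Gm46405 that overlaps Sox4, had scores of 9.28 and 14.8 in tumor 1 and tumor 2 (ranks 14436 and 15335) and H3K27ac in both tissues. The site 4309 bp upstream ranked 8829 and 12497, beside an H3K27ac summit 314 bp away in tumor and 270 bp away in normal. That summit and the one inside the gene ranked close together, at 5229 and 5324 of the normal list and 5435 and 5499 of the tumor list. The site 80971 bp upstream had H3K27ac in both tissues, the tumor summit 1 bp away. The best rank of a Sox4 site in tumor 2, 7815, was that of the site 94429 bp downstream, inside the long noncoding RNA gene 2610307P16Rik.

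That distant Sox4 site and the one 35470 bp upstream had a normal H3K27ac summit 402 and 197 bp away, and no tumor one within 30883 and 27118 bp. The normal summits were low in their list, with scores of 4.91 and 5.39 at ranks of 85.7% and 82.7%. The tumor list used for this comparison was the full and longer one. At Sox4 the site 6023 bp upstream went the other way, with a tumor summit 143 bp away and the nearest normal one at 1444 bp.

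At Sox9, 2 of the 3 sites lay within 1 kb of the gene. The site 102 bp outside its lower-coordinate end had scores of 10.7 and 16.8, ranks of 12067 and 13248, and H3K27ac in both tissues. The other sites lay 750 and 57022 bp beyond the higher-coordinate end, neither with H3K27ac within 1 kb. Of the 17 summits of tumor 1 and tumor 2 in this window, 6 formed these 3 sites, and 4 were in tumor 1 alone and 7 in tumor 2 alone. Beyond the gene and its first kb on the lower side, the window had no normal H3K27ac summit and 1 tumor summit, 161055 bp below the gene.

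Across the 27 sites, H3K27ac within 1 kb was present in both tissues at 8, in tumor alone at 3, in normal alone at 3 and in neither at 13. A tumor H3K27ac summit was thus found at 11 of 27 sites (40.7%, Wilson 95% interval 24.5 to 59.3, counting error only), against 52% of all 29492 sites of both tumor libraries. The share with a normal summit was also 40.7% (24.5 to 59.3), against 47.4% of all sites. Both background shares lie inside the interval, which takes the sites as independent although they share libraries and 4 loci. By gene, tumor H3K27ac was at 2 of 5 Sox2 sites, 4 of 8 Sox4 sites, 1 of 3 Sox9 sites and 4 of 11 Sox21 sites. The equal shares of tumor and normal come from lists of unequal length, the tumor list being the longer. With the tumor list at normal length, sites with tumor H3K27ac became 1 at Sox2, 3 at Sox4, 1 at Sox9 and 3 at Sox21. The share over all 29492 sites at that length was not counted. These shorter counts therefore cannot be read against the 52%, nor as a trait of the SOX sites.

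Sites with H3K27ac in both tissues had the better YAP ranks. Their median rank, averaged over both tumor libraries, was 28.0% of the list, against 61.3% at the 13 sites with none. Over all sites of both tumor libraries the same medians were 18.0% and 51.4%, so the order was that of the whole list. The median over all 27 SOX sites was 52.6%, and 38.3% over all sites. Ranks in tumor 1 and tumor 2 went together over the 27 sites, with a Spearman rho of 0.71 against 0.78 over all 29492, and these sites share libraries and 4 loci.

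**Figure D4:**
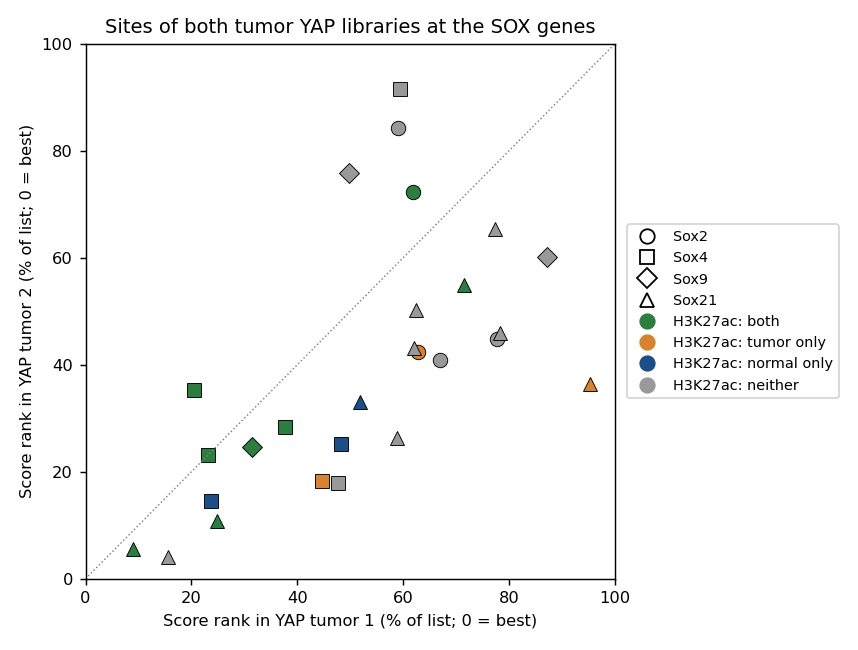
Rank of each of the 27 sites in YAP tumor 1 (horizontal) and YAP tumor 2 (vertical), in percent of the list with 0 as the best. Shapes are genes and colors the H3K27ac summits within 1 kb. The Sox21 start site is the lowest green triangle, at 8.98% and 5.59%, and the Sox2 circles all lie beyond 40% in both libraries.

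The H3K27ac comparison asks which elements at these genes carry the mark in tumor and in normal epithelium. All 4 genes carried it within the gene in both tissues, at nearly the same position. With the tumor list cut to the length of the normal list, summits numbered 3 in tumor and 2 in normal at Sox2, 5 and 6 at Sox21, 4 and 6 at Sox4, and 3 and 3 at Sox9. There is 1 library per group, so these differences have no replicate check.

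On the log2 scale of (tumor + 1)/(normal + 1), the differences were 0.42 for Sox2, -0.22 for Sox21, -0.49 for Sox4 and 0 for Sox9, with a median of -0.11 against 0 over all genes. None of the 4 passed 2-fold, which 16.6% of all genes did with tumor higher and 11.9% with tumor lower. The full tumor list had 13 summits at Sox2, 17 at Sox21, 8 at Sox4 and 5 at Sox9. The ratios then became 2.22, 1.36, 0.36 and 0.58, with Sox2 and Sox21 past 2-fold and the signs of Sox21 and Sox4 turned. The median of all genes was then 1.17, itself past 2-fold. At equal length, Sox21 reached -1.0 within 50 kb, from 1 tumor and 3 normal summits. It also did so with intergenic summits to 100 kb, from 2 tumor and 5 normal summits.

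At the genes themselves, the marks lay in place in both tissues. The summit inside Sox2 was at 34651216 in normal and 34651167 in tumor, 49 bp apart, and the one 11629 bp downstream in normal had a tumor partner 43 bp away. Inside Sox9 they were 9 bp apart and inside Sox4 46 bp apart. In Sox21 the pair near the start was 58 bp apart, and a weak normal summit 1605 bp from the other end, of rank 22147 of 22574, had no tumor summit within 1648 bp. Of the 17 normal summits in the 4 windows, 12 had a tumor summit within 1 kb, against 79.8% of all normal summits. Their share was 70.6% (Wilson 95% interval 46.9 to 86.7, counting error only, with summits of 4 loci taken as independent). By gene, the 12 were 2 of 2 at Sox2, 3 of 3 at Sox9, 4 of 6 at Sox4 and 3 of 6 at Sox21.

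Tumor summits without a normal one within 1 kb numbered 30 of 43 in the 4 windows, against 75.3% of all tumor summits. Their share was 69.8% (Wilson 95% interval 54.9 to 81.4, counting error only, with summits of 4 loci taken as independent). They were 4 of 8 at Sox4 and 3 of 5 at Sox9. At Sox2 they numbered 10 of 13, among them summits 7362 bp upstream (rank 23216 of 66896) and 4821 bp downstream (rank 23090). At Sox21 they numbered 13 of 17, among them the summit 133625 bp downstream with rank 11680. Just inside the 200 kb limit lay a tumor H3K27ac summit 199918 bp from Sox2, and just outside it a tumor 1 YAP summit 200006 bp from Sox21.

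The other SOX genes and the partner factors give the setting. Their windows follow the same rule, but counts are not scaled to the length of a gene, which for the 4 genes runs from 2467 to 5548 bp and for some others is far longer. Of the 16 other SOX genes, 14 had a site of both tumor libraries, with a median of 5 sites, and 5 had one within 1 kb of a gene end. Sox5 (12), Sox12 (11) and Sox13 (11) had the most, as many as Sox21 or more, and Sox11 and Sry had none. Of the 24 partner factors of foregut and stomach, such as Gata4 and Foxa2, 23 had a site and 14 one within 1 kb of an end. Their median was 10 sites, against 6.5 for the 4 SOX genes. Among all protein-coding genes, 85.6% had a site and 46.5% one within 1 kb of an end, with a median of 6 sites. Both tumor libraries were above both normal ones at 13 of 16 other SOX genes and at 24 of 24 partner factors, against 85.1% of all genes. H3K27ac at equal length was at least 2-fold higher in tumor at 4 and lower at 0 of the other SOX genes. Among the partner factors it was higher at 3 and lower at 4. Of all genes, 16.6% were higher and 11.9% lower. The 3 higher partner factors, Pdx1, Cdx2 and Trp63, and also Sox11 had only 1 tumor summit against 0 in normal. Pdx1 and Cdx2 had the same counts in all 6 libraries, so they are not taken as separate cases.

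The gene of these 2 lists with the pattern closest to Sox4 was Runx2, at a Euclidean distance of 0.37 in log2(summits + 1) over the 6 libraries, followed by Foxa2 at 0.44. Closest to Sox21 were Grhl2 (0.59) and Klf4 (0.64), both with 1 summit in normal 2 as at Sox21. Closest to Sox2 were Cdx1 (0.59), an intestinal factor gene, and Sox30 (1.25). Closest to Sox9 were Sox7 (0.75) and Sox18 (0.87), so Sox9 had the least close nearest gene.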

How the data were processed

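Each of the 6 ChIP-seq libraries (50 bp pairs, per the labels' protocols) was represented by 1 deposited list of summits of 1 bp. Per the submitters' processing notes, Bowtie2 and MACS2 were used on GRCm38 (mm10). Versions, thresholds and control libraries were not given in the sources read. The deposited score is the authors' −log10 significance (p-value or q-value, not stated) and was used to rank or filter summits within 1 list. Lists were called per library, since each has its own summits and peak names. No pair of YAP lists shared a summit of equal position and score (0 in each pair).

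Only the autosomes 1 to 19 and chromosomes X and Y were used. Gene positions came from RefSeq (GRCm38.p6), and strand from its promoter table. H3K27ac was paired with a YAP site within 1 kb. Differences between YAP groups were tested per gene by exact permutation of the 4 libraries, and the H3K27ac difference was not tested. Alternatives were other windows, reaches, match distances, score minimums, list lengths, merging, regrouping, and leaving out each YAP library. Python 3.11.15, numpy 2.4.6, pandas 2.3.3, scipy 1.17.1 and matplotlib 3.10.9 were used, and the counting steps were tested on simulated summits. Named genes were the 4 SOX genes, the other SOX genes with most or no sites, the 2 genes most alike to each, and neighbours. The members and lists were chosen with earlier results of these data known. One planned marker gene is not reported here.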

Additional observations from a re-analysis of the deposited data

How the results depend on the processing

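Among the settings that kept the labels, the direction of the YAP difference held at all 4 genes except at equal list length. There it was 0 for Sox2, Sox4 and Sox9 and -0.5 for Sox21, because the tumor lists kept no summit. Regrouping by the name words measured Clu_Yap minus cre, with overlapping groups, so its sign says nothing of tumor against normal. Leaving out 1 YAP library gave 5 to 15 for Sox2, 10 to 17 for Sox4, 7 to 10 for Sox9 and 10.5 to 20.5 for Sox21. With the replicate block, which pairs libraries by their number, the differences were 10, 13.5, 8.5 and 15.5 as without it (exact sign-flip p = 0.5, the smallest possible with 2 pairs). The labels do not say that equal numbers share a source, and the deviations of equally numbered libraries correlated over genes with r = 0.037.

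The number of sites of both tumor libraries moved more. It was 1 for Sox2 and 1 for Sox9 when summits had to lie within 100 bp. With scores of at least 5 in both it was 3 for Sox2 and 7 for Sox21, and with at least 10 it was 0 for Sox2, 3 for Sox4, 1 for Sox9 and 3 for Sox21. Within 10 kb it was 1 for Sox2, 3 for Sox4 and 2 for Sox21, and within 50 kb 3, 4 and 6. With intergenic summits to 100 kb it was 7 for Sox21. With intergenic taken as outside every annotated gene, an alternative added once the data had been seen, it was 5 for Sox4. With 1 tumor library alone, summits numbered 5 to 15 for Sox2, 10 to 17 for Sox4, 7 to 10 for Sox9 and 11 to 21 for Sox21. Sites with tumor H3K27ac became 1 at Sox2 with the tumor list at normal length and 2 at Sox21 within 500 bp. The cause of these moves beyond stricter or wider counting was not tested. The H3K27ac ratios rest on too few summits for counting error to show whether they are stable. The full lists moved them from 0.42 to 2.22 at Sox2, from -0.22 to 1.36 at Sox21 and from -0.49 to 0.36 at Sox4. Depth is unknown, and absence of a summit is absence from a list.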
